A study of Mus musculus with 8 samples.

Results

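The genes described are the 8 that encode the smooth muscle and nonmuscle myosin II chains: the heavy chains Myh11, Myh9, Myh10 and Myh14, and the light chains Myl6, Myl9, Myl12a and Myl12b. They were taken by symbol from 19938 genes measured on 8 Affymetrix arrays, keeping for each gene its brightest probe set by mean, and all 8 were measured. The RNA came from cultured primary smooth muscle cells of the mouse aorta (strain C57Bl6), used in passage 3 to 4. Every culture was kept in DMEM with 10% fetal calf serum for 24 h. The control group (n = 4) had no addition, and the other group (n = 4) received 100 nM jasplakinolide, a sponge toxin that enters cells and locks actin in its filamentous form. The labels name no separate animals or cultures for the replicates, and p-values therefore reflect only how these samples vary, a spread that may be technical.

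Myosin II is the motor that pulls on actin filaments. Each molecule holds a pair of heavy chains, a pair of essential light chains and a pair of regulatory light chains, and phosphorylation of the regulatory chain by myosin light chain kinase switches it on. Smooth muscle cells make the smooth muscle heavy chain Myh11 and the regulatory chain Myl9 as part of the contractile apparatus, and also the nonmuscle heavy chains, which serve stress fibres, adhesion and cytokinesis in most cells. Myh11 is a classic marker of the contractile state of vascular smooth muscle.

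Among the regulatory light chain genes the promoters differed in the CArG box, the element bound by serum response factor. RefSeq promoter sequences (GRCm38.p6) were matched by symbol for 7 of the 8 genes, all except Myh11. The sequences of the 3 regulatory light chain genes are shown because these genes encode close relatives and had different values below. Each is the stretch before the annotated gene, from at most 250 bases ahead of the transcription start, written 5′ to 3′ on the gene's strand. Capitals mark CArG boxes and sequences with 1 departure from the box in its A/T-rich centre.
Myl9, chr2:156775214-156775407, plus strand: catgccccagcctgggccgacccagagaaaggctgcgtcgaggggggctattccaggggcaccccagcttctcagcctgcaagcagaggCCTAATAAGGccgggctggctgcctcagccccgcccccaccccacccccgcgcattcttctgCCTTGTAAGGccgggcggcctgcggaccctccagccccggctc
Myl12a, chr17:71002534-71002783, minus strand: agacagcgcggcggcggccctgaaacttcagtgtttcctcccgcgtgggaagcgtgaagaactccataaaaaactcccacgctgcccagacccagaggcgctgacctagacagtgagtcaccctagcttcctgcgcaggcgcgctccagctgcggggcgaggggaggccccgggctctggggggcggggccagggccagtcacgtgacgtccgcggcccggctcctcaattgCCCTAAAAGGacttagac
Myl12b, chr17:70990517-70990766, minus strand: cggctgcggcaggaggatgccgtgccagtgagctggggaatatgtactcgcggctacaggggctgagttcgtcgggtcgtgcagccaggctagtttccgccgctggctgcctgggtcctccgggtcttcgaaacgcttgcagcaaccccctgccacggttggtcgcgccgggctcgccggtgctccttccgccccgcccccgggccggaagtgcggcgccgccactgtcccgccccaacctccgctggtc
The Myl9 promoter held an exact CArG box, CCTAATAAGG, at bases -161 to -152 from the start, and CCTTGTAAGG, with 1 departure, at -99 to -90. The Myl12a promoter held CCCTAAAAGG, with 1 departure, at -18 to -9, and the Myl12b window held neither. Tpm2 and Lmod1, described below, also rose and had 1 window each, with no CArG box, exact or with 1 departure. Actg2 and Tgfb3, also described below, had no window, and sequence outside the windows was not searched. Windows of 300 bases, 250 before and 50 after each start, were searched on both strands. Of 32851 such windows 1.63% held an exact CArG box and 9.98% held one with at most 1 departure. Myl6 had a window at each of 2 annotated starts, and the second held CCTTATATGG, an exact box, at -50 to -41. The windows of Myh9, Myh10 and Myh14 held no CArG box, exact or with 1 departure. A second motif, CATTCC, the element known for TEAD factors, was in 14.7% of windows and, among the genes searched, in those of Myh10 (-7 to -2) and Myl12a (28 to 33, on the opposite strand). These are matches of letters and were not tested as binding sites.

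The deposited values are log2 RMA expression levels, and the number of arrays limits the precision. The median over 1027 olfactory receptor genes, taken here as a reference for dim signal, was 5.04 log2 on control 2 and 5.05 on jasplakinolide 4. It was 4.91 to 4.97 on the 6 arrays left. The labelled cell type was checked by the levels of 12 smooth muscle markers, all of them above the dim level given below. With jasplakinolide 8 of them rose and none fell, against 0.436% and 0.336% of all genes. Their means over the 8 arrays ran from 7.49 (Des) to 13.53 log2 (Acta2, the actin of smooth muscle). Tagln, the transgelin of smooth muscle, had a mean of 12.83 log2. The means of 12 endothelial markers ran from 7.76 (Cldn5) to 13.39 log2 (Emcn) on the same arrays. Cdh5, another endothelial marker, had a mean of 13.13 log2. On control arrays the list mean was 10.90 to 10.94 log2 for the endothelial markers and 10.14 to 10.27 for the smooth muscle markers. The ranges of the smooth muscle and endothelial markers overlap and the endothelial list mean was the higher, so these levels do not settle the cell type. The 95th percentile of the olfactory receptor genes, 6.76 log2, served as that dim level, and the means of all 8 myosin II chains lay above it.

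Of the 8 myosin II chains, 2 rose with jasplakinolide, Myh11 1.76-fold and Myl9 1.82-fold, and 6 did not pass the test (limma, Benjamini-Hochberg adjusted p under 0.05 over all genes). Across all genes 0.772% passed, 0.436% as higher and 0.336% as lower. With the replicate number as a block Myh11 and Myl9 were again the only chains to pass (limma adjusted p = 0.0123 and 0.0109), against 1.89% of all genes. The 3 nonmuscle heavy chains had differences of 0.05 or less on the log2 scale. The median log2 difference of the 8 chains was 0.06, and that of all genes 0.01. The groups did not overlap for 5 of the 8 chains (Myh11, Myh9, Myl6 and Myl9 above, Myl12b below), against 6.91% of all genes. Each of the scalings tried left Myh11 and Myl9 as the only chains past the threshold.

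**Figure D1:**
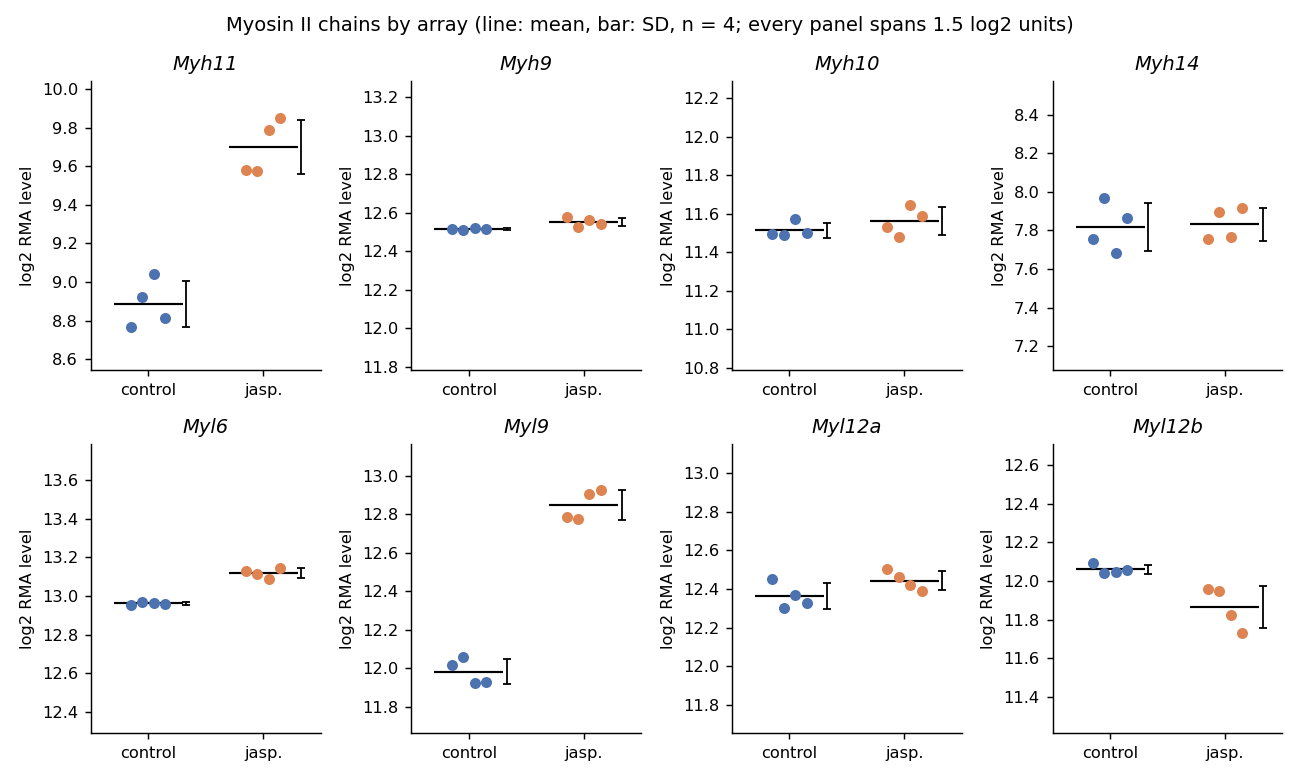
Log2 RMA level of each myosin II chain on every array, control in blue and jasplakinolide in orange, with the group mean as a line and the SD as a bar (n = 4 each); every panel spans the same range. Myh11 and Myl9 stand clearly higher on the treated arrays, Myl6 slightly higher and Myl12b slightly lower, while the points of Myh10, Myh14 and Myl12a overlap.

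Among the heavy chains, Myh11 read 8.77, 8.92, 9.04 and 8.82 log2 on control arrays 1 to 4 and 9.58, 9.58, 9.79 and 9.85 on treated arrays 1 to 4. The lowest treated array thus stood above the highest control. The means were 8.89 ± 0.12 and 9.70 ± 0.14 (SD, n = 4 each), a log2 difference of 0.81 ± 0.08 (SE; limma adjusted p = 0.00275). This difference exceeded in size that of 99.9% of all genes. The single Myh11 probe set cannot tell the SM1 and SM2 splice forms of the heavy chain apart.

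Myh9, the heavy chain of nonmuscle myosin IIA, was the steadiest member between control arrays. It read 12.51, 12.51, 12.52 and 12.51 log2 in control and 12.58, 12.53, 12.56 and 12.54 with jasplakinolide. The groups did not overlap, yet the log2 difference was 0.04 ± 0.04 (SE; limma adjusted p = 0.897), with an unadjusted 95% interval of -0.05 to 0.12. A second probe set of Myh9, dimmer and annotated to other transcript records, had means of 8.60 ± 0.09 and 8.71 ± 0.08 log2 (SD, n = 4 each), and its groups overlapped.

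Myh10, the heavy chain of nonmuscle myosin IIB, is known as an embryonic smooth muscle form. It read 11.50, 11.49, 11.57 and 11.50 log2 in control and 11.53, 11.48, 11.65 and 11.59 with jasplakinolide. The lowest of the 8 values was a treated one and control 3 stood apart from the other controls. The log2 difference was 0.05 ± 0.05 (SE), with an unadjusted 95% interval of -0.06 to 0.16 (limma adjusted p = 0.898).

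Myh14, the heavy chain of nonmuscle myosin IIC, read 7.76, 7.97, 7.68 and 7.86 log2 in control and 7.75, 7.89, 7.76 and 7.92 with jasplakinolide. The groups overlapped throughout, and the highest and the lowest value were both from control arrays. The log2 difference was 0.02 ± 0.07 (SE; limma adjusted p = 0.980), and its unadjusted 95% interval, -0.14 to 0.18, left room for a change in either direction. Its sign turned with the array left out.

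Among the regulatory light chains, Myl9 read 12.02, 12.06, 11.92 and 11.93 log2 in control and 12.78, 12.77, 12.91 and 12.93 with jasplakinolide. The gap between the highest control and the lowest treated array was wider than the range within either group. The means were 11.98 ± 0.07 and 12.85 ± 0.08 (SD, n = 4 each), a log2 difference of 0.86 ± 0.06 (SE; limma adjusted p = 0.000263). With control 2 and jasplakinolide 4 left out, the log2 difference was 0.86 for Myl9 and 0.77 for Myh11, and both passed (limma adjusted p = 0.00274 and 0.0162).

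Myl12a and Myl12b encode the regulatory chains of nonmuscle myosin, are near-identical in protein sequence and are neighbouring genes. Myl12a read 12.45, 12.30, 12.37 and 12.33 log2 in control and 12.50, 12.46, 12.42 and 12.39 with jasplakinolide, so that the groups overlapped. Myl12b read 12.09, 12.04, 12.05 and 12.06 log2 in control and 11.96, 11.95, 11.82 and 11.73 with jasplakinolide. Every treated value of Myl12b lay under every control value. The log2 difference was 0.08 ± 0.05 for Myl12a and -0.20 ± 0.06 for Myl12b (SE), and neither passed (limma adjusted p = 0.757 and 0.235). Treated arrays 3 and 4 had the higher values of Myh11 and Myl9 and the lower values of Myl12b, and treated arrays 1 and 2 the reverse. How far probes of such close copies share signal was not tested, and the values of Myl12a and Myl12b are uncertain to that extent.

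**Figure D2:**
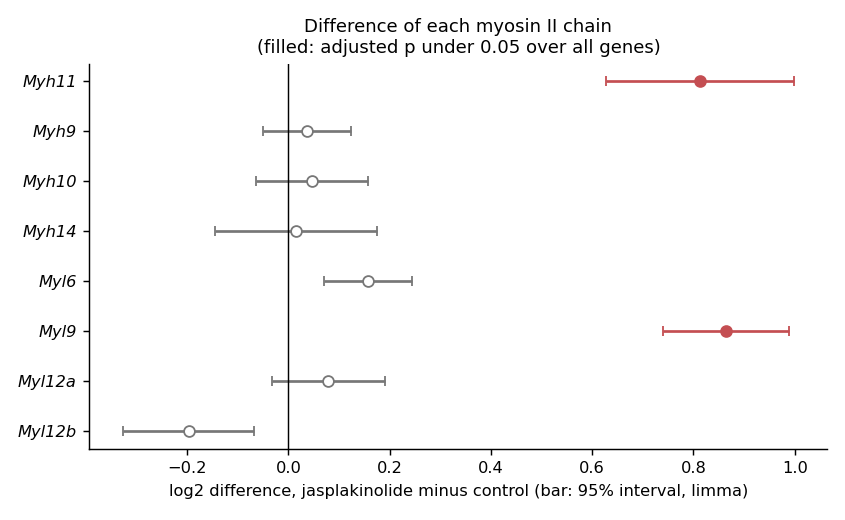
Log2 difference of each myosin II chain between jasplakinolide and control (x axis) with limma's unadjusted 95% interval; filled points passed an adjusted p under 0.05 over all genes. Myh11 (0.81) and Myl9 (0.86) stand apart, Myl6 (0.16) and Myl12b (-0.20) have intervals that leave out 0 without passing, and the intervals of the other 4 include 0.

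Myl6 encodes the essential light chain that both smooth muscle and nonmuscle myosin II use. It read 12.95, 12.97, 12.97 and 12.96 log2 in control and 13.13, 13.11, 13.09 and 13.15 with jasplakinolide. The 4 control arrays lay within 0.015 of each other and all treated arrays were above them. The log2 difference of 0.16 ± 0.04 (SE), 1.12-fold, did not pass (limma adjusted p = 0.136). It passed among the brighter 50% of genes (limma adjusted p = 0.0273), with array weights (0.0427) and under a robust prior with an intensity trend (0.00122).

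Myl6 was the only one of these genes with more than 2 probe sets. All 6 had higher means with jasplakinolide and groups that did not overlap, with log2 differences of 0.16 to 0.17. They are annotated to nearly the same transcript records, so that they are not independent of each other, and the annotation used here does not tell which of them lies on the gene itself. None of the 6 passed when each was fitted on its own among 21789 probe sets (limma adjusted p 0.0911 to 0.140).

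**Figure D3:**
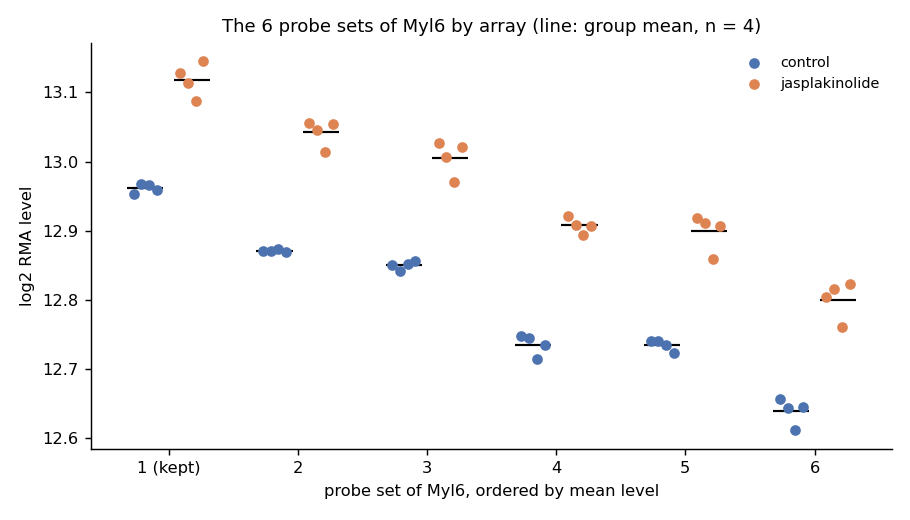
Log2 RMA level of the 6 probe sets annotated to Myl6 on every array, control in blue and jasplakinolide in orange, with group means as lines (n = 4 each). In each probe set the 4 treated arrays lie above the 4 control arrays, by 0.16 to 0.17 on average.

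Whether the chains changed unequally was tested on the difference between 2 chains within each array, in 6 pairs. Each pair held Myh11 or Myl9, the 2 chains that passed above. The 6 tests are therefore not independent of that result or of each other. Myh11 minus Myh9 averaged -3.63 ± 0.12 log2 on control arrays and -2.85 ± 0.14 on treated ones (SD, n = 4 each), a change of 0.78. Myh11 changed by 0.77 more than Myh10 and by 0.80 more than Myh14. Among light chains, Myl9 minus Myl12b went from -0.08 ± 0.07 to 0.98 ± 0.19 log2 (SD, n = 4 each), a change of 1.06, the largest of the 6. Myl9 changed by 0.78 more than Myl12a and by 0.71 more than Myl6. In each pair the 4 treated arrays lay above the 4 controls, and each exact permutation test (two-sided, 70 assignments) gave p = 0.0286, the smallest it allows, and 0.0286 after adjustment over the 6 pairs. That test does not use the pairing of arrays by replicate number; with it, an exact sign-flip test gave p = 0.125 in each pair, the smallest that 4 pairs of arrays allow, so that no pair could pass. A level of 1 gene cannot be set against that of another on these arrays, so the size of each difference carries no ratio of chains.

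**Figure D4:**
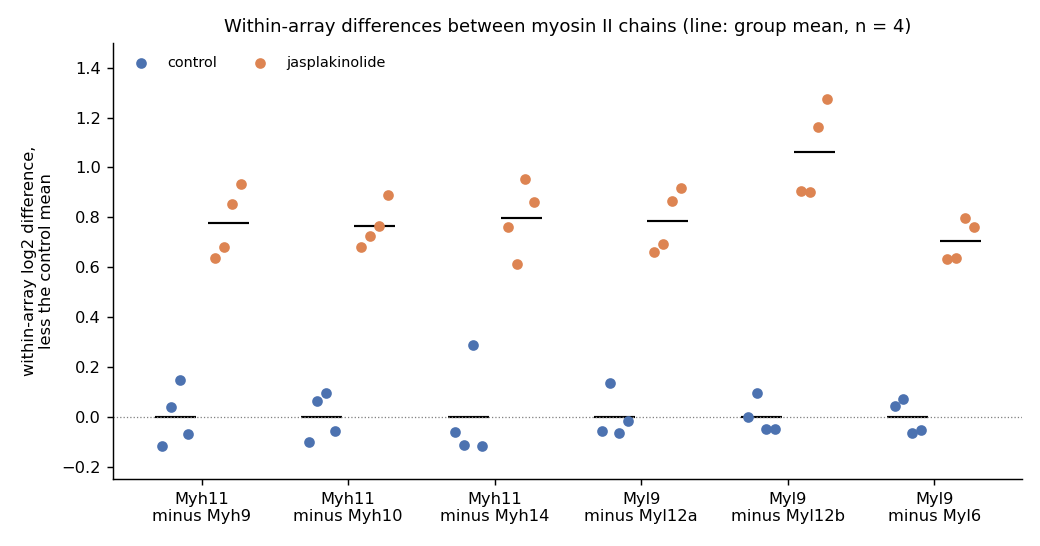
Within-array log2 difference between 2 myosin II chains, less its mean over the control arrays (y axis), for 6 pairs, with control in blue, jasplakinolide in orange and group means as lines (n = 4 each). The treated means lie 0.71 to 1.06 above control, and in no pair do the groups overlap.

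Likeness to Myh11 was measured after each gene was centred on its own mean, and predicted genes (Gm and Rik names) were left out. The 5 genes most like Myh11 were those with the smallest root mean square distance to it over the 8 arrays. They were Actg2, the gamma-actin of smooth muscle (distance 0.077 log2), Tpm2, a tropomyosin of the thin filament (0.089), Tgfb3, a transforming growth factor (0.093), Lmod1, the leiomodin of smooth muscle (0.098), and Myl9 (0.10). The median distance over all genes was 0.43. Among the other chains Myl6 was at 0.35, Myh10 at 0.39, Myl12a at 0.40, Myh9 at 0.40, Myh14 at 0.43 and Myl12b at 0.53. Lmod1 read 8.23, 8.24, 8.24 and 8.15 log2 in control and 8.73, 8.83, 8.98 and 9.04 with jasplakinolide. The 4 genes besides Myl9 rose by 0.68 to 0.93 on the log2 scale, as the choice by likeness to Myh11 entails. Tgfb3 (0.70 ± 0.10, SE; limma adjusted p = 0.0156) lost its call without control 1, control 4 or jasplakinolide 3 (adjusted p = 0.0507, 0.0712 and 0.0673).

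Of 21 measured genes of the kinase and phosphatase axis that sets light chain phosphorylation, 1 rose, none fell and 20 did not pass, and the median log2 difference was 0.06. The gene that rose was Ppp1r14a, which encodes CPI-17, an inhibitor of myosin phosphatase. It went from 8.31 ± 0.08 to 8.87 ± 0.07 log2 (SD, n = 4 each), a difference of 0.56 ± 0.06 (SE; limma adjusted p = 0.00275). Mylk, the myosin light chain kinase, chosen after its values were seen, had treated values above all controls with a difference of 0.19 ± 0.05, which did not pass (limma adjusted p = 0.145). Cit, which encodes citron kinase of the cytokinetic ring and was chosen in the same way, differed by -0.27 ± 0.06 (limma adjusted p = 0.0802) and passed as lower with the replicate number as a block (0.0410).

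Of 19 measured genes for folding, assembly and actin-side partners of myosin II, 17 did not pass, and the median log2 difference was 0.06. None fell, against 0.336% of all genes, and 2 rose, against 0.436%. They were Cnn1, which encodes calponin, an actin-binding inhibitor of the myosin ATPase (1.34 ± 0.07, SE; limma adjusted p = 0.000254), and Tpm2 (0.76 ± 0.09; 0.00569). In this list 10 genes had treated values above all controls and none below, against 3.62% and 3.29% of all genes. The list was chosen with earlier results of these data known. Cnn1 and Tpm2 are also among the 12 smooth muscle markers above, as are Cald1 and Smtn, so these counts are not separate from the rise of those markers.

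None of 10 striated muscle heavy chain genes passed, and the means of 8 of them lay at or under the dim level. Their median log2 difference was 0.07. Myh8, the perinatal heavy chain, differed by 0.13 ± 0.05 and Myh15 by 0.09 ± 0.07 (SE), and both are among those 8 dim genes. None of 8 striated and other light chain genes passed either, and 4 of the 8 lay at or under the dim level. Among those 4 were Myl10 (0.20 ± 0.08, SE) and Mylpf, the regulatory chain of fast skeletal muscle (0.15 ± 0.08). None of 21 unconventional myosin genes, the motors that form no bipolar filaments, passed. Across all genes 0.772% passed, so the lack of calls in lists this short does not set these 3 lists apart from all genes. Myo6, a motor that walks to the pointed end of actin, differed by -0.16 ± 0.10 and Myo1d by -0.11 ± 0.06 (SE), and the list's median was 0.02.

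**Figure D5:**
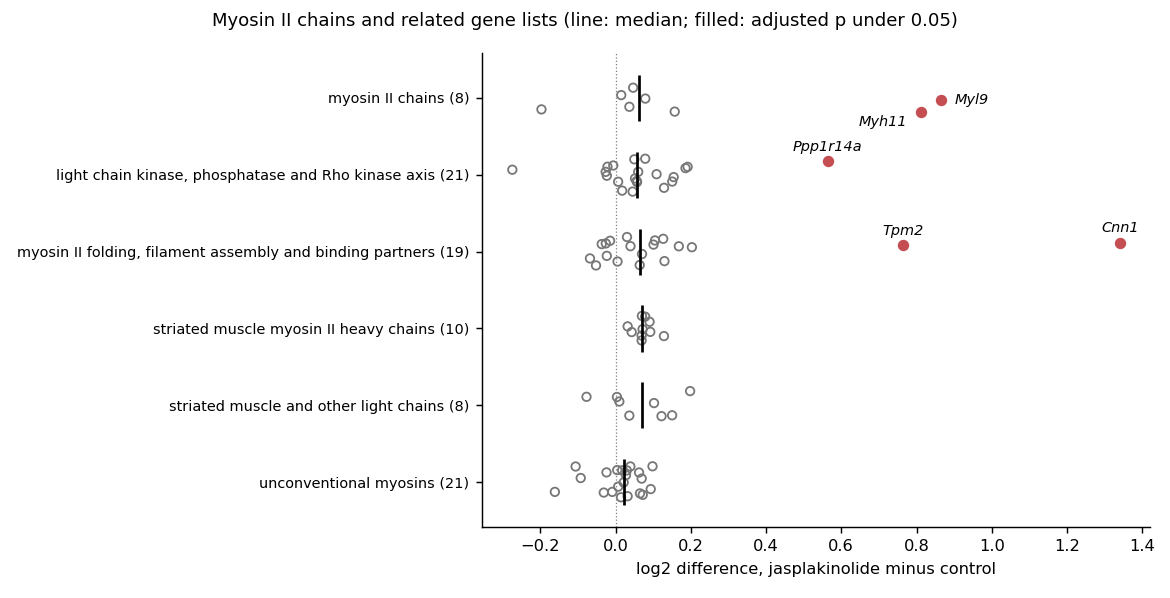
Log2 difference between jasplakinolide and control (x axis) of every measured gene in the myosin II chains and 5 related lists, with the number measured in brackets, list medians as lines and genes past an adjusted p under 0.05 filled. Myh11, Myl9, Ppp1r14a, Tpm2 and Cnn1 are the only filled points, and the medians lie between 0.02 and 0.07.

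Bulk arrays cannot tell fewer cells of a type from less RNA per cell, and some markers of other cell types moved beside Myh11 and Myl9. The only one of them to pass in the limma fit without the replicate block was endothelial (Robo4). The mean level of 12 endothelial markers was 10.90 to 10.94 log2 on control arrays and 10.69 to 10.81 on treated ones. Of these 12, 1 passed, as lower, against 0.336% of all genes. With the replicate block 3 passed as lower, Robo4 joined by Tek and Kdr (limma adjusted p = 0.0354 and 0.0424), against 215 of 19938 genes. All 12 lay above the dim level, and 6 had treated values under all controls, against 3.29% of all genes. The mean of 8 fibroblast markers was 8.67 to 8.81 log2 in control and 8.56 to 8.63 with jasplakinolide. None of the 8 passed, against 0.772% of all genes, and 6 lay above the dim level. With the block 1 of the 8, Dcn, which encodes decorin, passed as lower (-0.54, limma adjusted p = 0.0134), against 215 of 19938 genes. The mean of 8 macrophage markers was 7.87 to 7.98 and 7.86 to 7.99 log2, and all 8 lay above the dim level. None of them passed, against 0.772% of all genes, and 4 had higher and 4 lower means with jasplakinolide. With the block 1 of the 8, Cd68, passed as lower (-0.24, limma adjusted p = 0.0424), against 215 of 19938 genes. The groups of Cd68 overlapped in the values. Lyz2, 0.17 higher, was the only one of the 8 with treated values above all controls, against 3.62% of all genes. The part of these cell types in the rise of Myh11 and Myl9 was not tested.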

How the data were processed

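The file holds log2 expression values of 35556 probe sets, deposited by the authors. The submitters' processing notes name RMA and Affymetrix Expression Console, without versions. By the platform annotation 21789 probe sets carried 1 gene symbol, and the 1621 with several and the 12146 with none were left out. Identifiers of 21698 matched the RefSeq gene table, which changed 0 symbols. Per gene the probe set with the highest mean was kept, with no filter on dim ones. The 4 treated and 4 control arrays, grouped by their titles, were compared over 19938 genes by limma (version 3.58.1, under R 4.3.3), using lmFit and eBayes with Benjamini-Hochberg adjustment, two-sided. The fit was tested on simulated data. Figures used matplotlib 3.10.9 in Python 3.11.15. Detection calls were not used here.

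The members and lists were chosen with earlier results of these data known. Besides the 8 chains, the text names up to 3 genes per list past the test (the 2 largest differences where none passed) and the 5 genes most like Myh11. List genes without a value are not analysed here.

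Deviations from group means correlated at 0.24 to 0.56 between same-numbered arrays in all 4 pairs. Between control and treated arrays of different numbers the range was -0.62 to 0.52. Of the 8 arrays, 6 correlated best with the array of the same number. The replicate numbers were taken on this basis, from the data and not the labels, to pair the arrays, and the pairing is uncertain. The replicate block was an alternative, with its value printed where it moved the call of a gene or list described. Other alternatives were 2 filters on dim genes, 3 scalings, a robust prior with an intensity trend, weighted arrays, averaged probe sets, a threshold of 0.01, and arrays left out. Fits of single probe sets and the alternatives for lists and for genes other than the 8 chains were added after seeing the data. The replicate number is the only batch that was tested.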

Additional observations from a re-analysis of the deposited data

Results flagged for a closer look

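Among 64 groups of 4 arrays checked for a sample far from the others, 4 had one, and chance gives about 1 in 20. Control 3 was high for Myh10 (11.57 log2, the other controls 11.49 to 11.50) and low for Myh8 (6.45, the others 6.56 to 6.58). It was also high for Myh11 minus Myh14 (1.36, the others 0.95 to 1.01). Control 4 was low for Lmod1 (8.15, the others 8.23 to 8.24).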

How the results depend on the processing

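Myh11 and Myl9 passed in every alternative run, with log2 differences of 0.77 to 0.83 and 0.85 to 0.88, and with any 1 array left out (0.76 to 0.86 and 0.84 to 0.89). The count of chains that changed was 2 or 3 throughout, and 2 with any 1 array left out. Myl6 differed by 0.16 and passed with array weights, among the brighter 50% of genes, and under an intensity trend and robust prior. Myh14 gave no value among the brighter 50%. Over all genes 154 changed, 87 higher and 67 lower. The count was 377 with the replicate block, 296 among the brighter 50%, 358 with the trend and robust prior, 457 with array weights and 45 at a threshold of 0.01. It was 296 after a second quantile normalization (129 higher, 167 lower) and 297 after cyclic loess (129 and 168). With 1 array left out it ran from 43 (control 4) to 150 (control 2), and was 78 without control 1, 55 without control 3 or jasplakinolide 1, 52, 59 and 71 without jasplakinolide 2, 3 and 4. Of the kinase and phosphatase genes 2 passed with the replicate block, the second quantile normalization or cyclic loess, and 3 among the brighter 50% or with array weights. Of the folding and partner genes 5 passed with the trend and robust prior. The cause of these shifts was not tested. With the replicate block the paired changes of Myh11 against Myh9, Myh10 and Myh14 (0.78, 0.77 and 0.80) and of Myl9 against Myl12a, Myl12b and Myl6 (0.78, 1.06 and 0.71) had an exact sign-flip p of 0.125, the smallest that 4 pairs allow. Besides Cit, Tek, Kdr, Dcn and Cd68, the block changed no call of a gene named here. With 1 array left out the changes ran from 0.72 to 0.82, 0.72 to 0.80, 0.75 to 0.89, 0.74 to 0.83, 0.99 to 1.11 and 0.68 to 0.73 in that order.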
